A study of Mus musculus with 4 samples.

Results

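First-intron peaks are ATAC-seq peaks that HOMER, the peak caller and annotator used for these data, placed in the first intron of a transcript. They were selected as all peaks whose annotation began with "intron" and read "intron 1 of", without use of any score. This gave 14661 peaks among the 120839 of 4 lists. By muscle, 3709 of 30136 peaks qualified in the extensor digitorum longus (EDL), 5339 of 40337 in the quadriceps (Quad), 3441 of 28784 in the soleus (Sol) and 2172 of 21582 in the diaphragm (Dia).

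The study compared open chromatin between hindlimb muscles rich in fast, glycolytic fibres (EDL and Quad), a hindlimb muscle rich in slow, oxidative fibres (Sol) and the respiratory muscle (Dia). All 4 groups came from wild-type mice, whose strain is C57BL/6 in the labels and C57BL/6J in the methods, which describe males bought as young adults, and the labels name no transgene, exercise or other treatment. ATAC-seq marks DNA that the Tn5 transposase can reach. Each muscle was represented by 1 library whose label calls it pooled, without the number of animals, so differences between muscles describe these libraries and were not tested. The tissue was frozen whole muscle, in which a region open in more nuclei and a region more open per nucleus cannot be told apart.

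The first intron begins directly after the first exon, close to the promoter, and is usually the longest intron of a gene. Introns are removed from the RNA, so their sequence is free to hold enhancers, alternative start sites and silencers, and first introns are known for such elements. In muscle, classical examples lie in the first introns of genes for contractile proteins. Enhancers there are bound by myogenic E-box factors such as MyoD, by MEF2, which acts with them in fibre genes, by NFAT, which carries calcium signals of slow fibres, and by nuclear receptors such as the oestrogen-related receptors (ERR), which serve oxidative metabolism. TEAD factors act in muscle genes, AP-1 answers stress and contraction, and SP1 and ETS factors bind near many promoters.

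The regions below come from sets chosen by a rule on their rank and on the lists that held them. Within some sets the printed regions were picked by the function of their gene, as stated below. They are thus examples of such peaks as DNA and not a representative sample. Each is the peak of the list in which it ranked highest, printed 5′ to 3′ on the plus strand of mm10 (GRCm38), read from the RefSeq genome. Capitals mark matches on either strand to the 8 motifs searched, namely the MyoD E-box (CAGCTG), MEF2 (its 10-base consensus), TEAD (GGAATG), NFAT (TGGAAA), AP-1 (TGANTCA), ERR (TCAAGGTCA), ETS (CCGGAAG) and SP1 (GGGCGG). Matches to different motifs may overlap. Of the regions called in all 4 muscles at least 1 kb from any transcription start site (TSS), those in Aida (chr1:183299299-183299487) and Sin3a (chr9:57073392-57073600) had the highest mean score percentile.
Aida: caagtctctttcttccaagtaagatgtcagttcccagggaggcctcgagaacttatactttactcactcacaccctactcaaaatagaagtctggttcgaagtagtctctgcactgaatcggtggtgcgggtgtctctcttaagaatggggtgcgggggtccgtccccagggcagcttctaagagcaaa
Sin3a: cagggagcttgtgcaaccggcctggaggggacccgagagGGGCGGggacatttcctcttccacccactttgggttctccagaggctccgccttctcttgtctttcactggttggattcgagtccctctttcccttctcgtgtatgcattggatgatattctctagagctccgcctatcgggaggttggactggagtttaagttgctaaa
The Aida region held no match, and the Sin3a region held 1 SP1 match.

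The next 3 regions, called in EDL and Quad with no Sol or Dia peak within 500 bp, had the highest mean percentile of their kind. They lie in Mybpc2 (chr7:44523123-44523311), Slc16a3 (chr11:120952096-120952304) and Tmem38a (chr8:72572609-72572817).
Mybpc2: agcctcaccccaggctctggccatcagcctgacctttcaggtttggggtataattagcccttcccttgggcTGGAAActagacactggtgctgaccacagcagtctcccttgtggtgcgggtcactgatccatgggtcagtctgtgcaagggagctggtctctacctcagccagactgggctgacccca
Slc16a3: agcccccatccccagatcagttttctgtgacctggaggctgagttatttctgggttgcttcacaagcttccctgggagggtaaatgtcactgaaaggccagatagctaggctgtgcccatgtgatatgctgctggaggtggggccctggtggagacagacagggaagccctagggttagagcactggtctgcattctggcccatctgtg
Tmem38a: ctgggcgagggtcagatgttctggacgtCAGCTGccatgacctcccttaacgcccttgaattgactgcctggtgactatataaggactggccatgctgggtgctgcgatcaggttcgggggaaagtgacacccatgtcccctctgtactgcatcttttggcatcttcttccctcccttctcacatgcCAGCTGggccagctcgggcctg
Mybpc2 held 1 NFAT match, Tmem38a held 2 E-boxes and Slc16a3 held none of the motifs. Of the regions called in Sol and Dia with no EDL or Quad peak within 500 bp, those in Myom3 (chr4:135761120-135761326) and Asb15 (chr6:24543170-24543376) are shown out of the 5 highest because they belong to genes of the contractile apparatus and of muscle protein turnover.
Myom3: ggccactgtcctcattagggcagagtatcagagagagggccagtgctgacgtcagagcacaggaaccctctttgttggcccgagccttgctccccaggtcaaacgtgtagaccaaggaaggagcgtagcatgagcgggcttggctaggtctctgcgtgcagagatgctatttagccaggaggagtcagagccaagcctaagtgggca
Asb15: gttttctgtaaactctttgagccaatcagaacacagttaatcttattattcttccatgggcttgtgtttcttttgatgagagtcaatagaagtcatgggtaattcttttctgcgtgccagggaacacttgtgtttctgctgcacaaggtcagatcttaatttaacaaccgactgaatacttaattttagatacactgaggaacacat
Neither held a match. Among the 3 highest regions particular to each list, those in genes of muscle metabolism, the clock and muscle structure are shown, for Pygm in EDL (chr19:6384973-6385181), Nr1d2 in Quad (chr14:18238440-18238628), Fhl3 in Sol (chr4:124703566-124703772) and Lpin1 in Dia (chr12:16591523-16591755).
Pygm: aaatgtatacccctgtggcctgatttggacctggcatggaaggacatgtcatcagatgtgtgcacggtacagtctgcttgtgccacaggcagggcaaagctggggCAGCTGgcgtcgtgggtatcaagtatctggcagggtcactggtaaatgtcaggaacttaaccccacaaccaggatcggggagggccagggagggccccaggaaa
Nr1d2: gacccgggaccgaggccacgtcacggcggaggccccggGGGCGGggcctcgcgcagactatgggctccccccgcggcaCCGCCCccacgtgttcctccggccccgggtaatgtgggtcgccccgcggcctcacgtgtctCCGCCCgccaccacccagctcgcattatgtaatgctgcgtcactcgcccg
Fhl3: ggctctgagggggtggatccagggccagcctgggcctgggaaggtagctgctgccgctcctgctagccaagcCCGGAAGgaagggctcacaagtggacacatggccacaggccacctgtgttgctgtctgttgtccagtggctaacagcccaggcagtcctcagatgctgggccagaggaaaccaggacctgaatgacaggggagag
Lpin1: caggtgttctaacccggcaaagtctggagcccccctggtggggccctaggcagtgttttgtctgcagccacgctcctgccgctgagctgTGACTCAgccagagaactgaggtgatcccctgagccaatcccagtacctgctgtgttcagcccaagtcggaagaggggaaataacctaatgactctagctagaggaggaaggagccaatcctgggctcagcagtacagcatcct
The whole Pygm region has an exact copy on a scaffold of the reference outside the assembled chromosomes. It held 1 E-box, the Nr1d2 region 3 SP1 matches, the Fhl3 region 1 ETS match and the Lpin1 region 1 AP-1 match. The Nr1d2 region lay 572 bp from its TSS, and every other list had a peak 515 bp away. The Pygm region lay 669 bp from its TSS, and the other lists had peaks 581 to 604 bp away. Both thus passed the limit of 500 bp narrowly. A match is a string of letters and not a bound site.

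First-intron peaks made up 12.3% of the EDL list (95% Wilson interval, 11.9 to 12.7), 13.2% of the Quad list (12.9 to 13.6), 11.96% of the Sol list (11.6 to 12.3) and 10.1% of the Dia list (9.67 to 10.5). These intervals cover counting error only. The Dia share was the lowest of the 4 and its interval did not overlap the others. Among intronic peaks alone the shares were closer, at 35.9% (EDL), 35.5% (Quad), 36.2% (Sol) and 37.9% (Dia). The Dia list was thus low in intronic peaks as a whole and not in the first-intron share of them. The peak centre fell within the named first intron of the host transcript in RefSeq for 98.4% to 98.8% of members. Between 92.5% and 93.02% of first-intron peaks had a protein-coding host transcript. The intron was the first in every RefSeq isoform spanning the peak for 91.2% to 91.7% of those placed in the reference. Transcripts with a single intron contributed 182 peaks (EDL), 257 (Quad), 172 (Sol) and 99 (Dia).

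Library depth differed little except in Quad. If scores are scaled to the default depth of HOMER, their steps gave library depths of 103.9 (EDL), 78.1 (Quad), 104.6 (Sol) and 99.3 (Dia), in units of 1e+06 tags. On this basis a first-intron peak held a median of 69 tags (EDL, range, 35 to 513), 49 (Quad, 26 to 408), 70 (Sol, 33 to 494) and 66 (Dia, 39 to 567). All tag counts below are inferred in this way and are not scaled to depth. A lower count in Quad is thus not a lower rank, and between muscles the percentiles are the values to compare. The Quad list was called down to fewer tags than the others and was the longest, and in counts of regions found in Quad alone the list length and the muscle cannot be told apart.

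Since first introns are long, peaks were also counted per megabase. RefSeq gives 31122 distinct first introns with a median length of 2957 bp, against 183371 later introns with a median of 1310 bp. First-intron sequence outside exons and promoters held 14.1 peaks per Mb (EDL), 20.4 (Quad), 13.1 (Sol) and 8.23 (Dia). Later introns held 9.46, 13.9, 8.68 and 5.12 peaks per Mb in the same order. The ratio of first to later was 1.495 (EDL, 95% interval, 1.43 to 1.56), 1.47 (Quad, 1.42 to 1.52), 1.51 (Sol, 1.45 to 1.58) and 1.61 (Dia, 1.52 to 1.70). Every ratio exceeded 1 beyond counting error.

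The ratio differed with distance from a TSS. Within 1 kb of a TSS the ratio was 1.64 (EDL), 1.83 (Quad), 1.91 (Sol) and 1.76 (Dia). Between 5 and 20 kb it was 1.31, 1.29, 1.35 and 1.28. Beyond 50 kb it was 0.95 (EDL, 0.85 to 1.07), 0.94 (Quad, 0.86 to 1.04), 0.98 (Sol, 0.88 to 1.10) and 1.07 (Dia, 0.92 to 1.24). First introns were thus denser in peaks than later introns at the same distance out to 50 kb, and no difference was detectable farther away. Among the 20000 highest peaks of each list the EDL ratio beyond 50 kb was 1.18 (1.02 to 1.38), and the other 3 intervals again included 1.

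**Figure D1:**
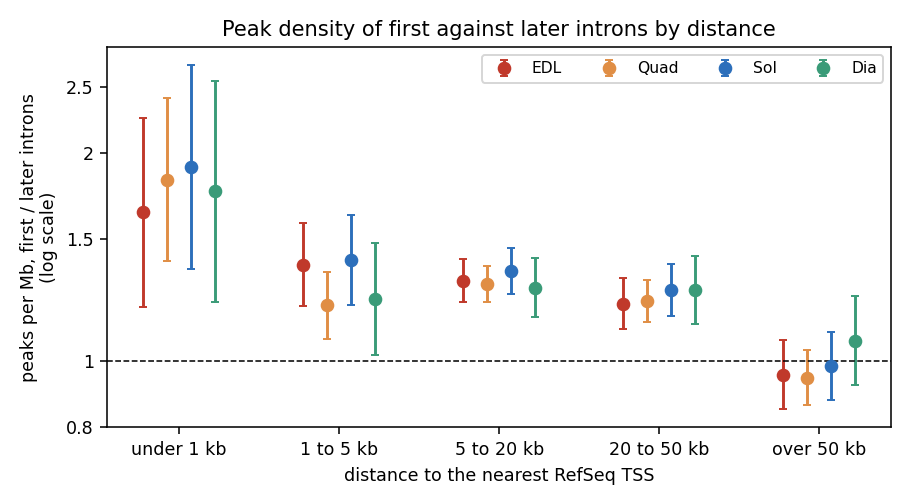
Ratio of peaks per Mb in first introns to that in later introns (log scale) by distance to the nearest RefSeq TSS, for the 4 muscles. Points are ratios and bars 95% counting intervals. All 16 intervals under 50 kb lie above the dashed line at 1, and the 4 over 50 kb include it.

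The rule fixes part of the distance to the TSS, so distances are given as a description. The median distance of first-intron peaks to the nearest TSS was 10413 bp (EDL), 10546 bp (Quad), 10612 bp (Sol) and 9796 bp (Dia). In the upper 50% of each list by score it was shorter, at 6790 bp (EDL), 7029 bp (Quad), 6281 bp (Sol) and 3014 bp (Dia). Over the whole lists, later-intron peaks lay farther away, at medians of 32303 bp (EDL), 33616 bp (Quad), 34393 bp (Sol) and 32303 bp (Dia). Most first-intron peaks therefore lay well outside the promoter window. Those under 1 kb from a TSS made up 14.96% (EDL), 15.5% (Quad), 16.4% (Sol) and 20.2% (Dia). The band from 5 to 20 kb held the most, between 34.1% in Dia and 36.9% in EDL. Peaks over 50 kb away made up 10.2% to 11.2%.

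**Figure D2:**
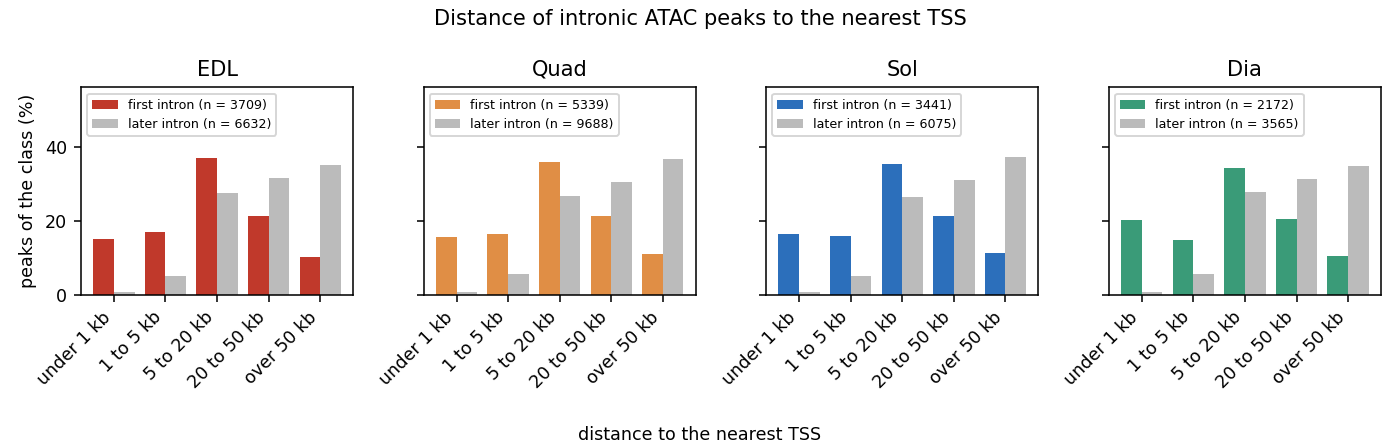
Share of first-intron peaks (coloured) and later-intron peaks (grey) in 5 bands of distance to the nearest TSS, in percent of each class, for the 4 muscles. First-intron peaks were most frequent at 5 to 20 kb and later-intron peaks at over 50 kb in every muscle.

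The nearest TSS belonged to the host gene for 91.6% to 92.6% of first-intron peaks, against 62.0% to 62.8% of later-intron peaks. For 11.4% to 12.1% of first-intron peaks the peak lay upstream of its nearest start site. Along the host intron the peaks were spread widely. The first 10% of the intron held 15.2% of them (EDL), 15.6% (Quad), 15.9% (Sol) and 18.7% (Dia), and the last 10% held 9.05%, 8.78%, 8.49% and 9.07%. The median host intron was 31210 bp long (EDL), 31644 bp (Quad), 32163 bp (Sol) and 30899 bp (Dia), far above the median of all first introns given above. These medians are over peaks, and a longer intron has more sequence in which a peak can fall.

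Scores were ranked within each list, because thresholds and depth differed between libraries, and a percentile of 100 is the highest peak of the list. The median percentile of first-intron peaks was 46.6 (EDL, 95% bounds, 45.5 to 47.6), 46.5 (Quad, 44.98 to 48.0), 44.8 (Sol, 43.8 to 45.9) and 40.5 (Dia, 39.2 to 41.7). Later-intron peaks ranked lower in every list, with medians of 37.01, 38.2, 37.02 and 31.1. Promoter peaks ranked far higher, with medians of 76.3, 81.3, 75.7 and 74.1. The highest 10% of a list held 3.48% of first-intron peaks (EDL, 2.93 to 4.12), 3.73% (Quad, 3.25 to 4.27), 3.55% (Sol, 2.98 to 4.22) and 2.67% (Dia, 2.07 to 3.44). For later-intron peaks the same shares were 1.92%, 1.51%, 1.45% and 0.870%, below the lower bound for first introns in each muscle.

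Percentile decreased with distance from the TSS. Under 1 kb the median was 60.3 (EDL), 63.0 (Quad), 60.3 (Sol) and 61.4 (Dia). Over 50 kb it was 39.6, 36.4, 34.6 and 25.7. In each band from 5 kb outward first and later introns were closer than overall. At 5 to 20 kb the medians were 42.1 against 39.6 in EDL, 43.4 against 41.8 in Quad, 40.5 against 41.6 in Sol and 35.4 against 32.7 in Dia, and the bounds of the paired medians overlapped in EDL and Sol and met at a single value in Quad and Dia.

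**Figure D3:**
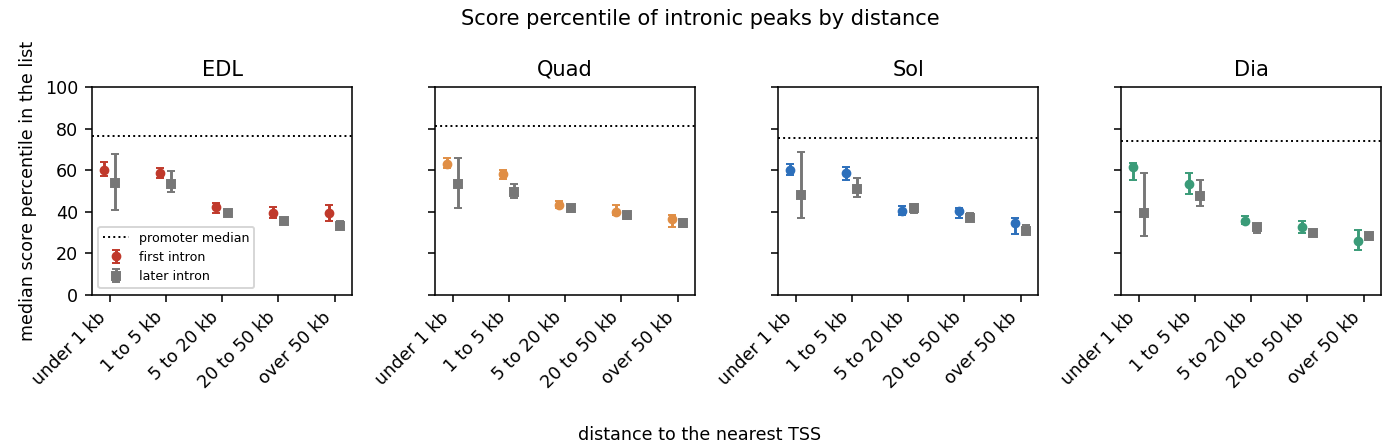
Median score percentile of first-intron (coloured circles) and later-intron (grey squares) peaks in 5 bands of distance to the nearest TSS, for the 4 muscles. Bars are 95% bounds of the median, and the dotted line is the promoter median, above every intronic band.

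The 200-bp windows of first-intron peaks were richer in G and C than those of later-intron peaks. Mean GC content was 53.5% (EDL), 53.5% (Quad), 54.1% (Sol) and 55.0% (Dia, SD over peaks, 7.30 to 8.20), against 51.2%, 51.0%, 51.4% and 51.8% in later introns. CpG-rich windows (GC of at least 50% and an observed to expected CpG ratio over 0.6) made up 11.6% (EDL), 12.2% (Quad), 14.0% (Sol) and 17.9% (Dia). In later introns they made up 2.29%, 2.37%, 2.68% and 3.42%, and in promoters 77.7%, 76.7%, 78.2% and 79.5%. Most CpG-rich first-intron windows lay under 1 kb from a TSS, with 302 among 431 (EDL), 456 among 650 (Quad), 342 among 480 (Sol) and 275 among 389 (Dia). Between 1.15% and 1.69% of first-intron peaks were at least 50% repeat-masked.

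Of the 8 motifs, SP1 differed most between first and later introns. It was present in 15.1% of first-intron windows (EDL), 14.9% (Quad), 15.9% (Sol) and 19.7% (Dia). The difference from later introns was 7.48 percentage points (EDL, Newcombe interval, 6.19 to 8.82), 7.75 (Quad, 6.68 to 8.84), 8.12 (Sol, 6.74 to 9.54) and 10.9 (Dia, 8.97 to 12.8). Among peaks over 1 kb from a TSS the difference was smaller, at 2.03 points (EDL, 0.85 to 3.26), 2.46 (Quad, 1.49 to 3.47), 2.16 (Sol, 0.92 to 3.47) and 2.81 (Dia, 1.08 to 4.63). SP1 was found in 61.6% to 63.7% of promoter windows and in 24.4% to 35.4% of all windows. ETS was present in 2.48%, 2.29%, 2.85% and 3.18% of first-intron windows, 0.84 to 1.52 points above later introns, and in 16.4% to 17.6% of promoter windows. Over 1 kb from a TSS the ETS intervals included 0 in all 4 muscles.

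The E-box and MEF2, the motifs of muscle genes, did not differ detectably between first and later introns. The E-box was present in 24.4% of first-intron windows (EDL), 22.7% (Quad), 23.8% (Sol) and 21.9% (Dia), against 17.2% to 20.1% of all windows and 10.6% to 11.6% of promoter windows. The difference from later introns was between -0.99 and -0.09 points with intervals that included 0 in every muscle. Over 1 kb from a TSS it was between 0.72 and 1.64 points, again with intervals that included 0. MEF2 was present in 3.37%, 2.53%, 3.23% and 2.58%, against 1.41% to 2.19% of all windows and 0.314% to 0.465% of promoter windows, again with intervals of the difference that included 0. TEAD was present in 14.4%, 13.3%, 13.96% and 13.5% (all windows, 10.3% to 11.8%). Its difference excluded 0 only in Quad over 1 kb from a TSS, at 1.55 points (0.37 to 2.78). ERR was present in under 1% of windows of any class. AP-1 was present in 10.8%, 10.5%, 10.3% and 10.8% (all windows, 7.61% to 9.08%) and its difference from later introns excluded 0 in Sol alone, at -1.78 points (-3.06 to -0.45), though not over 1 kb from a TSS. NFAT was present in 19.1%, 19.5%, 19.7% and 18.9% (all windows, 15.7% to 17.4%). Its difference from later introns was -2.88 points in Sol (-4.56 to -1.17) and -3.53 points in Dia (-5.65 to -1.36), and over 1 kb from a TSS both intervals included 0.

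Sharing between muscles was counted as an overlap of at least 1 bp with a peak of any class in another list. A first-intron peak had a peak in all 4 lists in 31.5% of cases in EDL, where 46.2% of all peaks did. The Quad share was 21.7% (all peaks, 34.3%), the Sol share 34.1% (48.4%) and the Dia share 53.8% (64.9%). First-intron peaks were therefore below the background of their list in every muscle. They had no peak in any other list in 15.6% of cases (EDL, all peaks, 12%), 37.3% (Quad, all peaks, 30.3%), 20.8% (Sol, all peaks, 16.1%) and 15.1% (Dia, all peaks, 11.5%), above that background. Both shares depended on list length and overlap rule. Among the 20000 highest peaks of each list, 34.9% (EDL, all of those peaks, 54.5%), 34.0% (Quad, all, 54.1%), 36.5% (Sol, all, 54.5%) and 41.6% (Dia, all, 54.8%) of first-intron peaks were in all 4 lists. There the share in no other list was 16% (EDL, all, 10.2%), 21.5% (Quad, all, 12.8%), 19.1% (Sol, all, 12.8%) and 25.7% (Dia, all, 19.5%), so that Dia rather than Quad had the highest share. At 50% reciprocal overlap 14.3% of Quad first-intron peaks were in all 4 lists, and in the upper 50% by score 8.51% of those of Dia were in no other list.

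Against later-intron peaks the order turned. First-intron peaks were in all 4 lists more often by 3.83 percentage points in EDL (1.996 to 5.68), 2.75 in Quad (1.41 to 4.11) and 3.77 in Sol (1.82 to 5.73), whereas the 2.10 points in Dia had an interval that included 0 (-0.57 to 4.75). For presence in no other list the difference was -1.80 points in Quad (-3.42 to -0.18), -2.88 in Sol (-4.59 to -1.14) and -2.67 in Dia (-4.61 to -0.69). The EDL difference of -0.94 points had an interval that included 0.

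These differences went with score and distance. Within quartiles of score, first-intron peaks were in all 4 lists more often beyond the interval in 0 of 16 comparisons and less often in 5, and they were in no other list more often in 7 and less often in 0. When peaks at least 5 kb from a TSS were compared within score quartiles, 1 of 16 comparisons for presence in all 4 lists and 0 of 16 for presence in no other list had an interval that excluded 0. The exception was the upper quartile in Sol, with a difference of 6.75 points (0.25 to 12.7). Distance was not matched further, and later-intron peaks were more often over 50 kb away. Score itself moved with sharing. First-intron peaks of all 4 lists had a median percentile of 65.8 (EDL), 71.9 (Quad), 64.6 (Sol) and 51.6 (Dia), and those of no other list had 25.6, 28.0, 21.9 and 18.4.

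Peaks that overlapped across lists were joined into 53883 regions, of which 7517 held at least 1 first-intron peak, in 3877 host genes. All peaks of the region were annotated to a first intron in 7294 (97.0%), and 144 also held a promoter peak. A total of 1317 first-intron regions (17.5%) were called in all 4 lists, against 26.9% of all regions. Quad alone held 1993 (26.5%, all regions, 22.7%), Sol alone 716 (9.53%, all, 8.62%), EDL alone 578 (7.69%, all, 6.71%) and Dia alone 327 (4.35%, all, 4.61%). EDL and Quad shared 732 with neither of the other two (9.74%, all, 8.05%), whereas Sol and Dia shared 106 (1.41%, all, 1.20%).

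**Figure D4:**
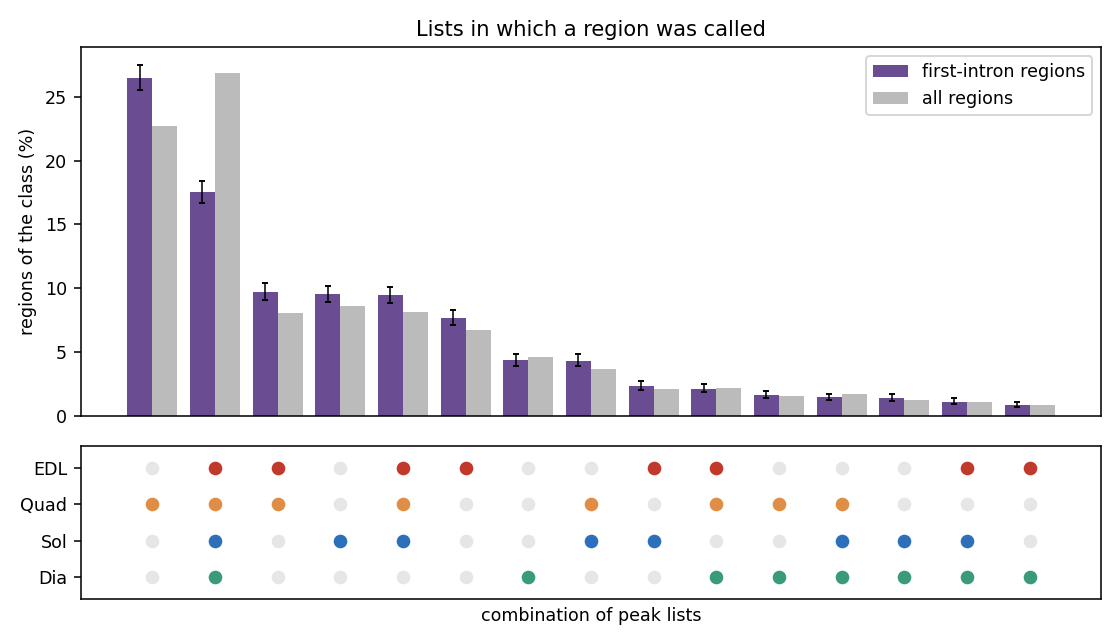
Share of first-intron regions (purple, n = 7517, with 95% Wilson intervals) and of all regions (grey, n = 53883) called in each combination of the 4 lists, in percent. Coloured dots show the lists in a combination. Regions of Quad alone were the most frequent first-intron class at 26.5%, and regions of all 4 lists followed at 17.5%.

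Over pairs of muscles, the share of first-intron regions of either list that both held was 45.8% for EDL with Quad, 45.03% for EDL with Sol and 38.3% for Sol with Dia. It was 37.6% for Quad with Sol, 36.2% for EDL with Dia and 28.2% for Quad with Dia. For later-intron regions the shares were 44.3%, 41.5%, 33.6%, 34.1%, 31.1% and 23.8% in the same order of pairs. The shares over all regions were not computed for pairs, so these values are not set against that background. The intervals of EDL with Quad (44.6 to 47.0) and EDL with Sol (43.7 to 46.4) overlapped. With the 20000 highest peaks of each list, EDL and Quad shared 52.5% and EDL and Sol 47.8%, and Quad with Sol (43.6%) then stood above Sol with Dia (42.3%), so part of the order depended on list length. At shared regions Spearman's rho between the score percentiles was 0.80 for EDL with Quad over 2918 regions, 0.76 for EDL with Sol over 2285 and 0.76 for Sol with Dia over 1614. It was 0.76 for Quad with Sol over 2460 regions, 0.73 for Quad with Dia over 1707 and 0.69 for EDL with Dia over 1624. For later introns it was between 0.59 and 0.74. These are descriptions over regions that share libraries, base composition and distance to the TSS.

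Genes with longer first introns more often had a first-intron peak. A longer intron has more sequence in which a peak can fall, and peaks per Mb were not computed by intron length. A first-intron peak was present in 10.7% of the 22155 genes with an intron (EDL), 13.9% (Quad), 10.3% (Sol) and 7.40% (Dia). Among genes whose longest first intron was under 1 kb the share was 1.39%, 1.97%, 1.23% and 1.16%. Among genes with one over 50 kb it was 42.7%, 53.9%, 45.3% and 33.7%. A single first-intron peak was found in 70.5% of host genes (EDL), 65.2% (Quad), 71.7% (Sol) and 79.0% (Dia), and genes with 3 or more peaks contributed 33.4%, 41.2%, 29.9% and 19.2% of the peaks. Host genes also had a promoter peak in the same list in 51.7% of cases (EDL), 59.7% (Quad), 50.7% (Sol) and 46.3% (Dia), against 38.7%, 42.5%, 38.6% and 37.9% of all genes with an intron. For host genes of later-intron peaks the shares were 54.1%, 58.4%, 54.9% and 52.8%. First-intron hosts were lower by 4.20 percentage points in Sol (difference, -6.87 to -1.53) and by 6.53 in Dia (-9.67 to -3.37), and the intervals in EDL and Quad included 0.

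Rora, which encodes the clock-linked nuclear receptor RORα, held the most first-intron regions, 43 over the first introns of 2 transcripts, which together span 600185 bp. EDL held 25 of its peaks, Quad 30, Sol 14 and Dia 13, and 5 regions were called in all 4 lists. Its peaks ranked from percentile 1.85 to 90.6. EDL and Quad alone shared 7 Rora regions and Sol and Dia alone shared 1. Kcnma1, the large-conductance calcium-activated potassium channel, held 21 regions. Trak1, a mitochondrial transport adaptor, held 18 over the first introns of 4 transcripts, which together span 118506 bp, with a median percentile of 72.3. Agap1, Ldlrad4 and Nfia held 15 each, and Nfia, a transcription factor of the NFI family, reached percentile 95.9 in Quad. Ank3, the membrane adaptor ankyrin G, held 14 regions, none of them with a Dia peak. Ext1, which builds heparan sulphate chains, the formin Fmnl2 and the forkhead factor Foxp1 held 13 each, and so did Nxn and Tmcc3.

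At the top of the ranking, 954 regions were first-intron in all 4 lists and at least 1 kb from a TSS. The Aida region shown above held 513 tags (EDL), 408 (Quad), 494 (Sol) and 567 (Dia), at percentiles of 99.97 or more, the highest of any first-intron peak in every list. These counts are inferred from the scores. The Quad count exceeds the number of start positions in its 189-bp peak on both strands. The inferred counts and the stated limit of 1 tag per start position may therefore not both hold. The distance of the Aida region to the nearest TSS, that of Brox, was -2100 bp. No other place in the reference matched 42 bases of it, the length of the reads. The Sin3a region, in the gene for a scaffold of histone deacetylase complexes, held 386, 270, 324 and 300 tags. The regions in Filip1l, Zbtb7a and Cldn34d followed. Zbtb7a encodes a zinc finger repressor, and its region held 372 tags (EDL), 256 (Quad), 315 (Sol) and 294 (Dia). The Cldn34d region shared 43 bases with 1 other place in the reference. Its percentiles were between 98.8 and 99.3.

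The regions of EDL and Quad without a Sol or Dia peak within 500 bp numbered 650, with a median percentile of 41.4. Their share over all regions was not computed under this 500-bp rule. By overlap alone, EDL and Quad only held 9.74% of first-intron regions and 8.05% of all regions. The 5 with the highest mean percentile are given here. Mybpc2, the fast isoform of myosin-binding protein C, held 151 tags in EDL (percentile 88.4) and 135 in Quad (92.6), 1452 bp from its TSS. The nearest Dia peak was 1788 bp away and the nearest Sol peak 25506 bp away. Slc16a3, the lactate exporter MCT4, held 158 tags in EDL (89.7) and 108 in Quad (87.1), and Bsg, the chaperone basigin that brings this exporter to the membrane, held 152 (88.6) and 100 (84.7). Both calcium-handling genes, Tmem38a (154 and 107 tags), a potassium channel of the sarcoplasmic reticulum, and Jph2 (149 and 102 tags), the junctophilin that ties that reticulum to the surface membrane, had the same pattern. The nearest Sol and Dia peaks lay closer to these regions than the Sol peak did to that of Mybpc2. They were 943 and 926 bp away for Slc16a3, 1399 and 1706 bp for Tmem38a, 1355 and 1380 bp for Jph2, and 2320 and 2379 bp for Bsg. Bsg and Jph2 nevertheless had a promoter peak in all 4 lists, at percentiles of 85.3 to 92.0 for Bsg and 60.7 to 93.2 for Jph2.

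The regions of Sol and Dia without an EDL or Quad peak within 500 bp numbered 82, with a median percentile of 31.5. Here too the share over all regions was not computed under the 500-bp rule. By overlap alone, Sol and Dia only held 1.41% of first-intron regions and 1.20% of all regions. Myom3, a protein of the sarcomeric M-band, held 120 tags in Sol (79.2) and 86 in Dia (59.97), and the nearest Quad peak lay 1191 bp away. Asb15, a muscle subunit of ubiquitin ligases, held 111 tags (75.2) and 86 (59.97). Dlgap4 held 117 and 114 tags, Akirin2 106 and 101, and Zmynd8, a reader of histone acetylation, 106 and 94. Dlgap4 also carried an EDL-only region in the same first intron, with 177 tags. The top regions of this kind ranked below those of EDL and Quad, all of whose percentiles were at least 84.7. They were the highest of 82 regions against the highest of 650, and the part of set size in this order was not tested.

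Regions called in 1 list with no peak of another within 500 bp made up 12.8% of first-intron peaks (EDL, 474), 31.3% (Quad, 1669), 17.3% (Sol, 596) and 12.1% (Dia, 262). Over all peaks the same rule gave 9.60% (EDL), 26.5% (Quad), 13.9% (Sol) and 9.79% (Dia). Their median percentile was low, at 24.0, 25.8, 19.0 and 16.7. The highest in EDL were in Brd2 (202 tags), a chromatin reader, Pygm (178 tags), the muscle glycogen phosphorylase, and Dlgap4. In Quad they were in Mir22hg (163 tags), the host gene of miR-22, Nr1d2 (132 tags), the clock repressor REV-ERBβ, and the G protein gene Gna11 (132 tags). In Sol they were in Fhl3 (185 tags), a LIM-domain protein of muscle, Adssl1 (161 tags), the muscle enzyme of purine nucleotide cycling, and the p38 pathway kinase Map2k3 (155 tags). In Dia they were in Lpin1 (147 tags), a phosphatidate phosphatase of lipid synthesis, Ubtf (132 tags), a factor of ribosomal RNA synthesis, and Zfp982 (98 tags). The Nr1d2 and Pygm regions passed the 500-bp rule narrowly, with peaks of every other list 515 bp and 581 to 604 bp away. The whole Brd2 region, like that of Pygm, has a copy on a scaffold outside the chromosomes. The Zfp982 peak was entirely repeat-masked, 56 of its bases lay in 61 exact matches elsewhere in the reference, and its centre did not fall in the reference intron.

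The host genes often had a promoter peak in muscles where the first-intron region was not called. Of the 1279 host genes of Quad-only regions, 60.6% had a promoter peak in Quad (57.9 to 63.2), 51.8% in EDL, 52.5% in Sol and 50.4% in Dia. For EDL-only regions the shares were 54.9% (EDL), 61.7% (Quad), 55.6% (Sol) and 54.4% (Dia). For Sol-only regions they were 54.2% in Sol and 51.8% to 58.3% elsewhere, and for Dia-only regions 45.9% in Dia and 44.3% to 55.7% elsewhere. Quad thus had the highest share in each set, as it did over all genes with an intron, and in the EDL, Sol and Dia sets the muscle that held the region was not the highest. These differences between lists were not tested. Pygm had a promoter peak at percentile 90.6 (EDL), 94.5 (Quad), 87.1 (Sol) and 76.0 (Dia), and Nr1d2 one at percentiles of 99.5 to 99.9.

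By motif, the regions called in all 4 lists held SP1 in 25.3% (23.0 to 27.7), against 10.4% in both the EDL with Quad set and the Sol with Dia set. They also lay nearer a TSS (median, 7525 bp, against 11656 and 14172 bp). Their mean GC content (56.6%, against 52.2% and 53.5%) and median percentile (74.6, against 52.1 and 41.6) were higher. The part of these in the SP1 share was not tested. The E-box was present in 26.0% of the EDL with Quad regions (22.9 to 29.3) and in 17.9% of the Sol with Dia regions (11.8 to 26.3). NFAT was present in 28.3% of the 106 Sol with Dia regions (20.6 to 37.5) and in 17.5% of the 732 EDL with Quad regions (14.9 to 20.4). Of the 8 motifs searched, NFAT alone had intervals that did not overlap between the Sol with Dia and EDL with Quad sets. With 1 library per muscle this is a description. ERR (0% against 1.09%) and AP-1 (6.60% against 9.84%) were lower in the Sol with Dia set. MEF2 (3.77% against 2.60%) and ETS (2.83% against 0.683%) were higher in it, and TEAD was near equal (13.2% against 13.4%).

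Of 20 fast-fibre genes, 7 (EDL), 6 (Quad), 4 (Sol) and 2 (Dia) had a first-intron peak. The myosin light chain gene Myl1 held 2 regions, and its stronger one had 133 tags in EDL and 69 in Quad and was not called in Sol or Dia. Tnnc2, fast troponin C, held a region with 135 tags in EDL and 93 in Quad. Actn3, the fast Z-disc α-actinin, held one with 120 and 88. Neither was called in Sol or Dia. Pvalb, the calcium buffer parvalbumin, differed from these, with 108 tags in Quad (87.1), 56 in Sol (27.7) and 62 in Dia (35.4), and no EDL peak within 5946 bp. Tbx15, a regulator of glycolytic fibres, held 10 regions, and its best peak ranked at 82.4 (EDL), 87.7 (Quad), 57.8 (Sol) and 54.2 (Dia). Eya1, a cofactor of homeodomain factors in fast fibres, had peaks in EDL and Sol at low percentiles of 6.46 and 21.9.

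Of 20 slow-fibre genes, 7 (EDL), 6 (Quad), 8 (Sol) and 4 (Dia) had a first-intron peak. Myl3, the slow myosin light chain, held 2 regions called in Sol alone, with 130 and 117 tags, and the first lay 5516 bp from the nearest Quad peak and farther from those of EDL and Dia. Casq2, the slow and cardiac calsequestrin, held 4 regions, of which 3 had a Sol peak and none a Dia peak. Csrp3, a Z-disc stress sensor, held 3, with peaks in Sol, Dia and EDL and none in Quad. Mybpc1, the slow myosin-binding protein C, went against its list. Its strongest region had 149 tags (EDL), 95 (Quad), 130 (Sol) and 71 (Dia), that is, percentiles of 88.0, 82.9, 82.7 and 46.4. Lpl, lipoprotein lipase, likewise had a region in EDL (75 tags) and Quad (59 tags) alone. Tpm3 had one in Quad alone, at percentile 23.4. Esrrg, which encodes ERRγ, held 4 regions, and the 1 called in all lists ranked at 75.7 in Sol, 50.8 in Quad, 38.3 in EDL and 31.1 in Dia. Ppargc1a, which encodes PGC1α, had a first-intron peak in Sol alone (70 tags, 44.8), 939 bp from its TSS.

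**Figure D5:**
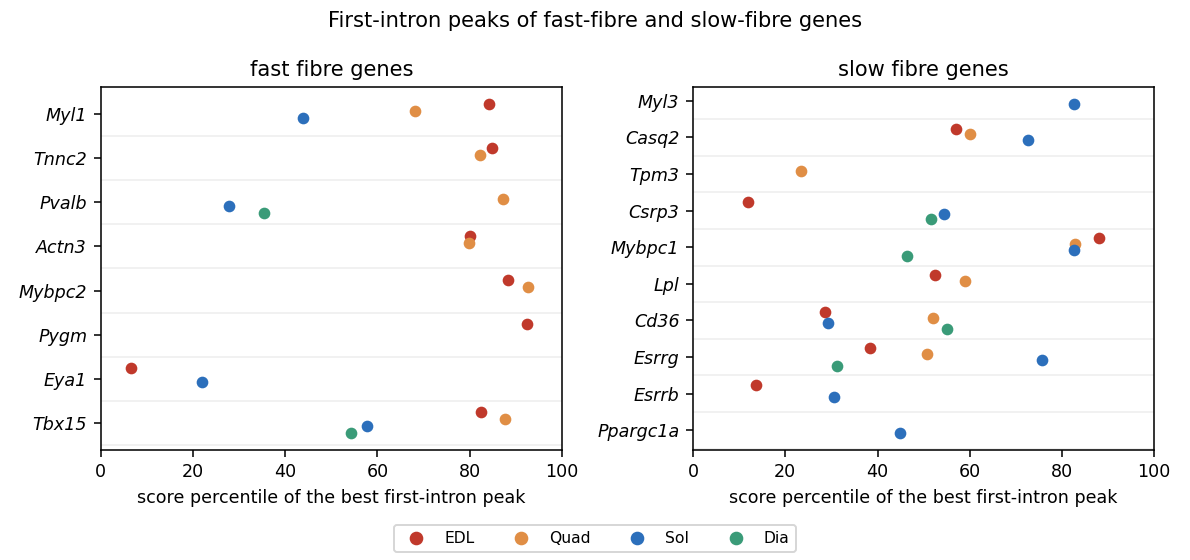
Score percentile within the list (0 to 100) of the highest first-intron peak of each fast-fibre (left) and slow-fibre (right) gene that had one, coloured by muscle. A missing point means that no first-intron peak was called. On the left, Mybpc2, Tnnc2, Actn3 and Pygm have EDL or Quad points only. On the right, Myl3 and Ppargc1a have Sol points only, whereas Lpl and Tpm3 have EDL or Quad points only.

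Of 30 genes of the sarcomere, Z-disc and dystrophin complex, 16 (EDL), 12 (Quad), 10 (Sol) and 6 (Dia) had a first-intron peak. Actn2, the Z-disc α-actinin of all fibres, held 4 regions, all with a Sol peak and 3 with no other. The region 2742 bp from its TSS had 166 tags in Sol, 98 in Dia and 67 in EDL. Pdlim5, a Z-disc adaptor, had a region in all 4 lists with 199 tags (EDL), 156 (Quad), 174 (Sol) and 160 (Dia). Ttn, the giant titin, had one with 157 tags in EDL, 98 in Quad and 125 in Sol, and no Dia peak within 527 bp. Of the 20 skeletal muscle fibre genes, Mb, which encodes myoglobin, held 3 regions, 1 of them with 147 tags (EDL), 109 (Quad), 181 (Sol) and 119 (Dia). Ryr1, the calcium release channel, held a region with 210, 134, 186 and 121 tags, and Des, desmin, one with 129, 73, 129 and 81. Myom2 was called in EDL (143 tags) and Quad (101 tags) only.

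Of the 33 muscle transcription regulators with an intron, 15 (EDL), 18 (Quad), 15 (Sol) and 10 (Dia) had a first-intron peak. They accounted for 68, 84, 51 and 35 peaks. Mef2c, a MEF2 factor, held 6 regions, of which the highest had 135 tags (EDL), 97 (Quad), 133 (Sol) and 111 (Dia). Klf15, a regulator of amino acid and lipid use, held 1 region at percentile 90.9 (EDL), 94.9 (Quad), 92.4 (Sol) and 82.3 (Dia). Ppard, which encodes PPARδ, held 1 with 139, 94, 126 and 110 tags. Ppargc1b, the paralogue of Ppargc1a, held 10 regions, of which 2 were called in all lists. Tead1 held 9 and Thrb, the thyroid hormone receptor β, 6, with 4 of its peaks in Sol and 1 in each of the other muscles.

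Of 24 genes of insulin signalling, glucose uptake and glycogen, 12 (EDL), 11 (Quad), 8 (Sol) and 7 (Dia) had a first-intron peak. Pfkfb3, which sets the level of the glycolytic activator fructose 2,6-bisphosphate, held 7 regions, the highest with 165 tags (EDL), 149 (Quad), 186 (Sol) and 130 (Dia). In the same order its best peaks ranked at percentiles of 90.8, 94.3, 93.3 and 82.3. Hk2, hexokinase 2, held 2, with peaks in EDL and Quad only. Akt2, the insulin-responsive kinase, was called in all lists with 136, 85, 131 and 97 tags, and Tbc1d1, a substrate of such kinases in glucose transport, in EDL alone. Of 20 genes of fatty acid uptake and oxidation, 8, 6, 8 and 5 had a first-intron peak. Acacb, which makes the malonyl-CoA that restrains mitochondrial fatty acid entry, held 2 regions in all lists. The farther one, 14284 bp from the TSS, had 121 tags (EDL), 103 (Quad), 209 (Sol) and 158 (Dia). Ucp3, a mitochondrial carrier, had 144 tags (EDL), 105 (Quad), 82 (Sol) and 94 (Dia).

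Of 20 circadian clock genes, 7 (EDL), 9 (Quad), 7 (Sol) and 3 (Dia) had a first-intron peak. Nr1d1, which encodes REV-ERBα, held a region with 242 tags (EDL), 168 (Quad), 197 (Sol) and 169 (Dia), at percentiles of 91.1 to 97.3. Per2 had one in EDL (113 tags), Quad (59) and Sol (120). Arntl, which encodes BMAL1, had peaks in EDL, Quad and Sol and none in Dia. The time of tissue collection was not compared here.

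Markers of other cell types were also among the host genes. Of 14 endothelial genes with an intron, 3 (EDL), 3 (Quad), 3 (Sol) and 2 (Dia) had a first-intron peak, and 9, 12, 10 and 3 had a promoter peak. Tek, the angiopoietin receptor, held a region with 116 tags (EDL), 93 (Quad), 121 (Sol) and 83 (Dia). Of 15 fibroblast genes, 4, 4, 2 and 3 had a first-intron peak and 4, 3, 3 and 1 a promoter peak. Of 15 leukocyte genes only Mrc1 had a first-intron peak, in Quad (32 tags), and none had a promoter peak in any list. Of 10 smooth muscle genes, 1, 2, 0 and 0 had a first-intron peak, and of 10 satellite cell genes 1, 2, 2 and 1. Against these, 8, 8, 7 and 4 of the 20 fibre genes had a first-intron peak and 13, 15, 10 and 8 a promoter peak. Each of the 8 lists of muscle, metabolic and clock genes, and the endothelial and fibroblast lists too, held first-intron peaks in a larger share of its members than the background of 7.40% to 13.9% in the same muscle. Some of these shares rested on few genes and lay near the background. They included 2 of 20 fast-fibre genes in Dia (10%, background, 7.40%) and 2 of 15 fibroblast genes in Sol (13.3%, background, 10.3%). The satellite cell list was also above the background in Quad (20%), Sol (20%) and Dia (10%), though not in EDL (10%, background, 10.7%). No intervals were computed for these shares. The first introns of the lists were also of unequal length, with a median from 1670 bp in the fast-fibre list to 18938 bp in the regulator list and 3276 bp over all genes. The part of length in these shares was not tested.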

How the data were processed

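ATAC-seq was performed by the authors on nuclei from frozen, pulverised EDL, Quad, Sol and Dia of mice, with 42-base paired reads, giving 1 pooled library per muscle. Per the methods, reads were aligned by the authors to mm10 with Bowtie2, at most 1 tag per start position was kept, and HOMER called peaks of fixed width in each library and annotated them by gene. Promoters ran from 1 kb before to 100 bp after a TSS. The deposited peak score was taken as a signal, the tags of a peak normalised to library depth, and the deposited focus ratio is a fraction that was not analysed. A Tn5 offset and removal of mitochondrial reads are not given in the sources used here. The detailed annotation column holds no entries.

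First-intron peaks were read from the annotation column, and the host gene and intron from RefSeq (GRCm38.p6). Scores were ranked within each list. Peaks were shared at an overlap of at least 1 bp, counted in Python by code checked against bedtools 2.31.1 on simulated intervals. Shares have 95% Wilson intervals, differences Newcombe intervals and medians binomial order-statistic bounds, all of which cover counting error only. With 1 library per muscle no test between muscles was possible. Motifs were searched on both strands of the central 200 bp, and the MEF2 consensus was restricted to A or T at its centre after the data had been seen. In scores under 10, between 98.0% and 100% were whole multiples of a single tag (tolerance, 0.0051). Scripts used Python 3.11.15, pandas 2.3.3, NumPy 2.4.6, SciPy 1.17.1, pysam 0.24.0, samtools 1.23.1 and matplotlib 3.10.9, and were tested on simulated data.

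The peaks, gene lists and motifs were chosen with earlier results of these data known. Genes were named by rule, namely the 10 host genes with most regions, the 5 highest-ranked regions of all 4 lists at least 1 kb from a TSS, the 3 highest of each list and the 5 highest of either fast or slow pair of muscles (EDL and Quad, or Sol and Dia), both without another peak within 500 bp, and members of the gene lists. The alternatives were the 20000 highest peaks of each list, the upper 50% by score, 50% reciprocal overlap, matching within 500 bp, peaks over 1 kb from a TSS, RefSeq introns, omission of single-intron transcripts, autosomes and X only, whole peaks for motifs, and omission of CpG-rich windows, the last added after the data had been seen.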

Additional observations from a re-analysis of the deposited data

How the results depend on the processing

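Values follow the order EDL, Quad, Sol and Dia unless named. The first-intron share of peaks was 12.3% (Quad) and 11.6% (Sol) among the 20000 highest peaks, 11.2%, 12.2%, 10.4% and 7.54% in the upper 50% by score, 11.7%, 12.6%, 11.4% and 9.61% without single-intron transcripts, 10.5%, 11.2%, 10% and 8.03% over 1 kb from a TSS, and 13.5%, 14.5%, 13% and 10.8% with RefSeq introns. The median distance was 8478 bp (EDL), 7029 bp (Quad) and 8778 bp (Sol) for the 20000 highest, 6790, 7029, 6281 and 3014 bp in the upper 50%, and 9447, 9319, 9655 and 8666 bp where the nearest transcript was the host. The median percentile was 44.3 (EDL), 41.6 (Sol) and 36.8 (Dia) over 1 kb from a TSS, and the same 3 values were found without CpG-rich windows.

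The share in all 4 lists was 22.6%, 14.3%, 24.1% and 37% at 50% reciprocal overlap, 38.3%, 28.7%, 41.0% and 62.3% within 500 bp, 34.9%, 34.0%, 36.5% and 41.6% among the 20000 highest, 64.5% (Dia) in the upper 50%, 29.5%, 20.5% and 32.2% (EDL, Quad, Sol) over 1 kb from a TSS, and 28.5%, 19.9% and 31.6% (EDL, Quad, Sol) without CpG-rich windows. The share in no other list was 22.7%, 43.9%, 26.9% and 22.4% at reciprocal overlap, 12.8%, 31.3%, 17.3% and 12.1% within 500 bp, 21.5% (Quad), 19.1% (Sol) and 25.7% (Dia) among the 20000 highest, 13.1% (EDL), 15.6% (Sol) and 8.51% (Dia) in the upper 50%, and 22.3% (Sol) without CpG-rich windows. Shared regions of pairs were 52.5% (EDL with Quad), 47.8% (EDL with Sol), 38.1% (EDL with Dia), 43.6% (Quad with Sol), 34.7% (Quad with Dia) and 42.3% (Sol with Dia) among the 20000 highest, with rho of 0.695, 0.691, 0.638, 0.661, 0.667 and 0.719. Over 1 kb from a TSS they were 43.1% (EDL with Sol), 33.3% (EDL with Dia), 35.8% (Quad with Sol), 25.4% (Quad with Dia) and 35.4% (Sol with Dia). The density ratio was 1.81, 1.95, 1.76 and 1.71 and the Quad host genes numbered 1717 among the 20000 highest. The cause of these shifts was not tested. For these alternative sharing rules, shares over all peaks were computed only for the 20000 highest and for no other list within 500 bp, both given above. The other sharing values here, and those of pairs, have no such background. No difference whose interval excluded 0 changed sign. Of the 32 motif differences, 10 over 1 kb from a TSS and 1 over whole peaks changed sign, all with intervals that included 0 before and after. The GC difference between first and later introns excluded 0 under both of its alternatives. Over 1 kb from a TSS it was smaller, at 0.900, 0.840, 0.966 and 1.02 points, against 2.34, 2.44, 2.71 and 3.22 over all distances. The share of peaks did not move on autosomes and X. Among the motif differences, 7 no longer excluded 0 and 1 newly did over 1 kb from a TSS.

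Leaving out CpG islands by the detailed annotation was not run, since that column holds no entries. No paired analysis was possible because each muscle had 1 library. Without replicates, animal-to-animal spread is unknown, and a peak that was not called is only one under the threshold of its list.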
